A study of Homo sapiens with 2 samples.

Results

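FGF9, FGF2, NUDT6, FGFR1, AC087623.2, FGFR2 and FGFR3 were examined in an FGF9 knockdown of a human chondrocyte line. They are the target of the shRNA, another fibroblast growth factor (FGF) ligand, the receptors FGFR1, FGFR2 and FGFR3, and the genes annotated on the opposite strand of FGF2 and of FGFR1. They were 7 of the 58220 genes in the deposited tables, and they were chosen by name with their counts and ratios in the same libraries already known, so their values are given as a description without a test. All 7 were found, and FGF2, NUDT6, FGFR1 and AC087623.2, 4 of the 7, reached 10 counts in 1 library or both. The other members, FGF9, FGFR2 and FGFR3, had between 0 and 1 count in each library.

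The cells were C28/I2, an immortalized human chondrocyte line with the genotype WT in the labels. The control culture, shvoid, was infected with a lentivirus carrying a control shRNA, and the knockdown culture, shFGF9-D1, with a lentivirus carrying 1 shRNA against FGF9, both at a multiplicity of infection of 10. Total RNA was taken after 72 hours and sequenced from a strand-specific kit, with 1 library per condition. No difference therefore had a replicate check, and the effect of FGF9 cannot be told apart from that of this shRNA or of this culture.

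FGFs are secreted ligands that bind receptor tyrosine kinases on the cell surface together with heparan sulfate chains, and the activated receptors signal through the RAS-MAPK, PI3K-AKT, phospholipase C gamma and STAT branches. In cartilage, FGF9 is a high-affinity ligand of FGFR3, FGFR1 is the receptor most often linked with matrix breakdown in articular chondrocytes, and FGF2 is stored in the matrix around the cell and released on injury. NUDT6 encodes a Nudix hydrolase and is also known as an antisense transcript of FGF2, because both genes run across the same DNA in opposite directions.

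FGF2 and NUDT6 overlapped tail to tail on chromosome 4. In GRCh38, FGF2 (ENSG00000138685) spans chr4:122826708-122898236 on the plus strand and NUDT6 (ENSG00000170917) spans chr4:122888697-122922968 on the minus strand. Their annotated exons shared 804 bases in 2 blocks, from 65.867 to 66.518 kb and from 70.818 to 70.971 kb after the first FGF2 base. All of the shared bases lay in the 3′ untranslated region of FGF2, with 0 of them coding in FGF2, whereas 450 of them coded for protein in NUDT6. The shared bases were 11.9% of the exon sequence of FGF2 and 12.2% of that of NUDT6. A stretch of 30 of them, at chr4:122893196-122893225, is shown on both strands because a fragment from these bases belongs to NUDT6 or to FGF2 according to its strand alone, and the pair of sequences are reverse complements of each other.

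NUDT6 coding exon, minus strand: gagacacagcggttcgagaagtttttgaag
FGF2 3′ exon, plus strand: cttcaaaaacttctcgaaccgctgtgtctc

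**Figure D1:**
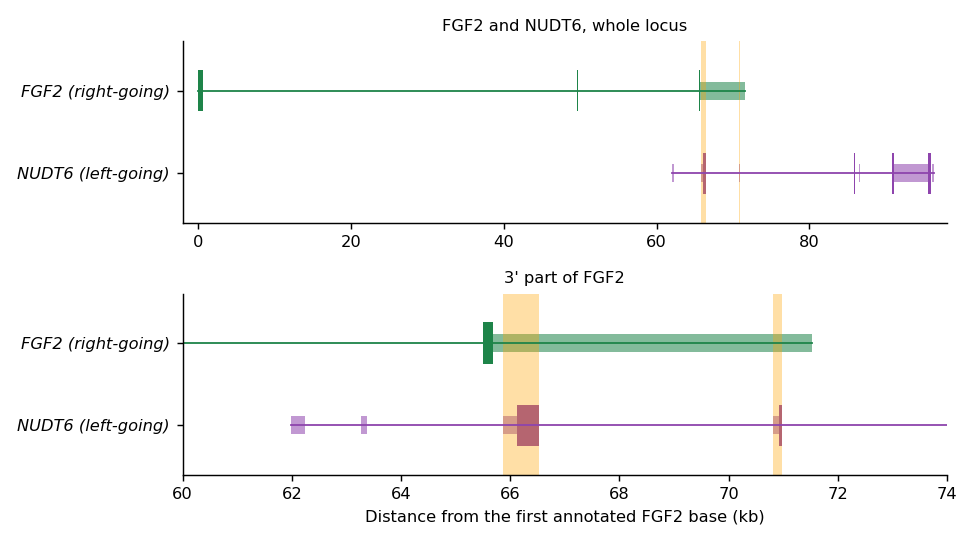
Annotated exons of FGF2 (green, transcribed to the right) and NUDT6 (purple, transcribed to the left) against the distance in kb from the first FGF2 base, for the whole locus and for the 3′ part of FGF2. Tall blocks are coding, low blocks are untranslated, and orange marks the 2 stretches that both genes share, from 65.867 to 66.518 kb and from 70.818 to 70.971 kb.

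The start sites of FGF2 and NUDT6 lie far apart, and the DNA before them differed in composition. The promoters are shown because FGF2 and NUDT6 had the highest and the lowest ratio between the libraries. The RefSeq start of FGF2 lies inside the first FGF2 exon of GENCODE 29, so only the part of its 250-base window before that exon is printed, 127 bases. These bases (chr4:122826581-122826707, plus strand) and the 250 bases before NUDT6 (chr4:122922969-122923218, minus strand) are given from RefSeq on GRCh38.p14, with capitals on the letters of the GC box core, searched as GGGCGG on both strands.

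FGF2 promoter: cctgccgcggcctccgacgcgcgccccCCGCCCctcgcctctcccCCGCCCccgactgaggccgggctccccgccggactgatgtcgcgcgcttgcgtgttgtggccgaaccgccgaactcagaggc
NUDT6 promoter: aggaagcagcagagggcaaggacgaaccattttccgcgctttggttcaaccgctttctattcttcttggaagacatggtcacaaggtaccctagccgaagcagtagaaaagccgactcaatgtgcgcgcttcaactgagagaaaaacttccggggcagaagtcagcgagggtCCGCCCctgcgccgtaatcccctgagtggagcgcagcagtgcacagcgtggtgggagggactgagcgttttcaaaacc

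Over the 250 bases before each RefSeq start (chr4:122826581-122826830 for FGF2), FGF2 had a GC content of 75.2% and 33 CpG sites, and NUDT6 had 55.6% and 16. The median GC content of all 35116 promoter windows in the table was 58%. The FGF2 window held the GC box core 3 times, 2 of them in the printed part, and the NUDT6 window 1 time, as against at least 1 match in 42.6% of all windows. Neither window held TATAAA, which was present in 10.7% of all windows. These matches describe letters only, and the table held promoters for 4 of the 7 genes.

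The libraries were shallow, and their counts need care with respect to strand. The authors' estimated counts summed to 519192 in shvoid and 502774 in shFGF9-D1, so that 1 count was worth 1.93 and 1.99 CPM (counts scaled to the library total). Of the 14 chondrocyte markers, 6 had 0 counts in both libraries, including COL2A1 (type II collagen), and SOX9, the master chondrocyte transcription factor, had 2 counts in shvoid and 1 in shFGF9-D1. PRG4 (lubricin) was the only one of the 14 to reach 10 counts, with 11 and 12. In comparison, 40798 of all 58220 genes had 0 counts in both libraries, and 4000 reached 10. At least 1 count was present in 5148 of 6614 nuclear protein-coding genes whose exons overlap an opposite-strand gene. The same held for 6846 of 13164 without such an overlap. What the marker counts say about cell identity was not tested. Of 8 markers of fibroblasts and dedifferentiation, 2 reached 10 counts, with 0 higher and 1 lower (2-fold or more, with a 95% interval on 1 side of equal levels), beside 4.7% and 5.38% of the 4000 genes with enough counts. TWIST1, a transcription factor of mesenchymal cells, had 19 counts in shvoid and 6 in shFGF9-D1, and COL1A1 had 19 and 26. VIM, which encodes the abundant filament protein vimentin, had 17 counts in each library while VIM-AS1 on its opposite strand had 14278 in shvoid and 13214 in shFGF9-D1, a pair chosen after its values were seen. Which strand the authors counted is not stated in the sources at hand, and whether each gene's fragments came from its own strand was not tested.

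FGF9, the target of the shRNA, had 0 counts in shvoid and 0 in shFGF9-D1. FGF9 (ENSG00000102678) spans chr13:21671383-21704498 on the plus strand, with 4539 bases of exon and no exon shared with an opposite-strand gene. Provided that counting followed the RNA's own strand, and with a floor of 3 counts, 0 counts allowed up to 5.78 CPM in shvoid and 5.97 CPM in shFGF9-D1. The upper end of the exact Poisson 95% interval for 0 counts was slightly higher, at 3.69 counts. The knockdown could not be checked from these counts, since FGF9 had 0 counts in the control as well. Whether this reflected little FGF9 RNA or the strand that was counted was not tested.

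FGF2, the ligand stored around the chondrocyte, had the largest ratio of the 7 genes. It had 4 counts in shvoid (exact Poisson 95% interval 1.09 to 10.2) and 14 in shFGF9-D1 (7.65 to 23.5), or 7.70 and 27.8 CPM. The shFGF9-D1 library was the higher one, although the intervals of the pair of counts overlapped. After scaling by the trimmed mean of M-values (TMM), FGF2 was 3.70-fold higher in shFGF9-D1 (log2 ratio 1.89, exact Clopper-Pearson 95% interval 0.22 to 3.95). FPKM, which is scaled by transcript length, was 1.55 and 7.28, a difference of 1.70 on the log2(FPKM + 1) scale. These intervals hold counting error alone, so they bear on 2 libraries and not on the conditions.

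NUDT6, on the opposite strand, was counted more often than FGF2 in both libraries and had the lowest ratio of the 7 genes. It had 47 counts in shvoid (34.5 to 62.5) and 23 in shFGF9-D1 (14.6 to 34.5), or 90.5 and 45.7 CPM. The shvoid library was the higher one, and the intervals of the counts stopped just short of each other. The ratio was 0.518 (log2 -0.95, interval -1.74 to -0.20), an interval without equal levels but with a ratio just short of 2-fold. FPKM went the same way, from 237 in shvoid to 109 in shFGF9-D1, a difference of -1.11 on the log2(FPKM + 1) scale.

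FGF2 and NUDT6 thus had ratios in opposite directions, and FGF2 made up more of the pair in shFGF9-D1. FGF2 held 4 of the 51 counts of the pair in shvoid (7.84%, exact Clopper-Pearson interval 2.18% to 18.9%) and 14 of 37 in shFGF9-D1 (37.8%, 22.5% to 55.2%). The intervals of the share did not overlap, and the share does not depend on how the libraries were scaled. These intervals hold counting error alone, with 1 library per condition, and the pair was chosen with its counts known. Nothing is therefore read from the gap between them. The sum of the pair was 51 and 37 counts, a log2 ratio of -0.38 (interval -1.03 to 0.26), so equal sums were within counting error. If the strand was read in reverse, counts from the shared exons would change places between FGF2 and NUDT6, and with them the directions given here, and this was not tested. In the deposited FPKM table, FGF2 and NUDT6 were listed under 1 shared locus, and how fragments in their shared exons were divided was not tested.

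FGFR1 was the only receptor of the 3 with more than 1 count in a library. It had 30 counts in shvoid (20.2 to 42.8) and 43 in shFGF9-D1 (31.1 to 57.9), or 57.8 and 85.5 CPM. The shFGF9-D1 count was the higher one, and the intervals overlapped over a wide range. The TMM-scaled ratio was 1.52-fold (log2 0.60, interval -0.10 to 1.32), which included equal levels. FPKM went the other way, from 25.1 in shvoid to 17.9 in shFGF9-D1, a difference of -0.46 on the log2(FPKM + 1) scale. The direction of FGFR1 between the libraries therefore depended on the measure, as it did for 10.4% of the 4000 genes with at least 10 counts in a library.

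FGFR1 (ENSG00000077782) lies at chr8:38400215-38468834 on the minus strand and has 43 annotated transcripts, from 276 to 6216 bases long. The length implied by its count and its FPKM was 2306 bases in shvoid and 4773 bases in shFGF9-D1. On the log2 scale this was a shift of 1.05, and 5 of the 2043 genes with at least 20 counts in both libraries had a larger one in the same direction, or 11 in either direction. The middle 90% of those genes had shifts from -0.29 to 0.28, and the 573 of them with 1 annotated transcript stayed between -0.22 and 0.29. The set was not matched to FGFR1 for count or for number of transcripts. AKT1, outside the set with 19 counts in shvoid, has 20 annotated transcripts. Its implied length was 2352 bases in shvoid and 4920 bases in shFGF9-D1. For NUDT6 the implied length was 382 and 420 bases, a shift of 0.14 that lay at the 84.7th percentile. A change in which FGFR1 transcripts were assigned the fragments and a change in fragment number cannot be told apart from gene totals.

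**Figure D2:**
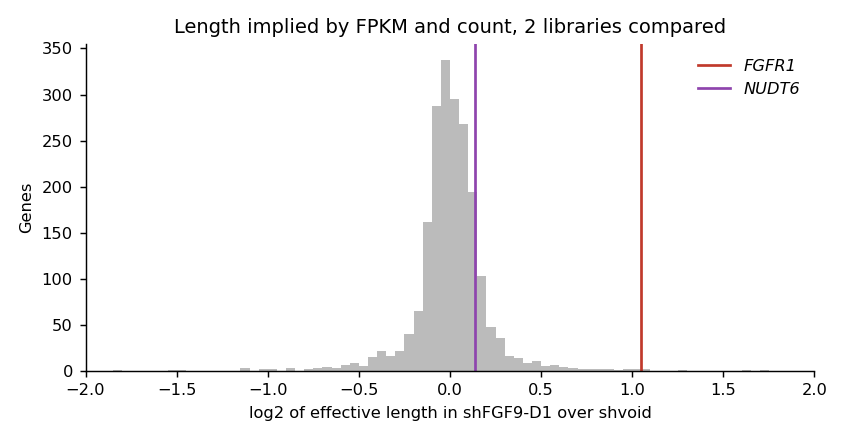
Number of genes by the log2 ratio, shFGF9-D1 over shvoid, of the length implied by FPKM and count, for the 2043 genes with at least 20 counts in both libraries. The red line marks FGFR1 at 1.05, beyond nearly all of these genes, and the purple line marks NUDT6 at 0.14, within the bulk.

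AC087623.2 (ENSG00000255201) is a non-coding gene annotated as antisense to FGFR1, with 1 transcript of 534 bases at chr8:38421889-38426096 on the plus strand. It had 15 counts in shvoid (8.40 to 24.7) and 16 in shFGF9-D1 (9.15 to 26.0), with a log2 ratio of 0.18 (interval -0.94 to 1.29). The libraries were nearly level for this gene, and the interval allowed a change of nearly 2-fold downwards and of more than 2-fold upwards. FPKM was 97.8 and 99.2. It shared 156 exon bases with FGFR1, 29.2% of its own sequence and 1.13% of that of FGFR1. LETM2, a mitochondrial inner membrane protein gene that shares 138 exon bases with FGFR1 in GENCODE 29 but is a separate locus in the deposited table, had 17 counts in shvoid and 8 in shFGF9-D1 (log2 ratio -1.01, interval -2.43 to 0.28).

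FGFR1 held 30 of the 45 counts of the FGFR1 and AC087623.2 pair in shvoid (66.7%, 51.0% to 80.0%) and 43 of 59 in shFGF9-D1 (72.9%, 59.7% to 83.6%). These intervals overlapped over most of their range. The sum of the pair had a log2 ratio of 0.47 (interval -0.11 to 1.07).

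FGFR2 and FGFR3 had at most 1 count in a library. FGFR2, at chr10:121478334-121598458 on the minus strand, had 0 counts in both libraries. FGFR3, at chr4:1793293-1808872 on the plus strand and the receptor best known for restraining growth-plate chondrocytes, had 0 counts in shvoid and 1 in shFGF9-D1, with FPKM listed at 0 and 0.387. No ratio is given for either, and neither shares an exon with an opposite-strand gene. As for FGF9, whether these counts reflected little RNA or the strand that was counted was not tested.

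**Figure D3:**
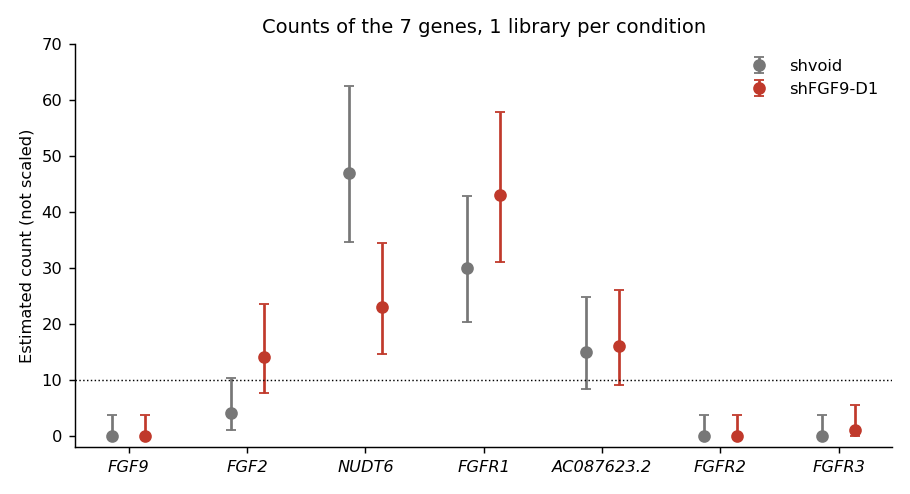
Estimated count of each of the 7 genes in shvoid (grey) and shFGF9-D1 (red), 1 library each, with exact Poisson 95% intervals for counting error. The dotted line marks 10 counts. FGF2 went from 4 to 14 and NUDT6 from 47 to 23, while FGF9 and FGFR2 were at 0 in both libraries.

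By length-scaled level (FPKM), the order was the same in both libraries: NUDT6 highest, then AC087623.2, FGFR1 and FGF2, with FGFR3 at or just above 0 and FGF9 and FGFR2 listed at 0. In shFGF9-D1 the step from NUDT6 at 109 to AC087623.2 at 99.2 was small beside counts of 23 and 16, whose intervals overlapped. Both opposite-strand genes were thus above the FGF2 and FGFR1 genes they overlap on this scale. That order depends on the implied lengths in shvoid and shFGF9-D1, 382 and 420 bases for NUDT6 beside 4967 and 3825 for FGF2. The shortest annotated NUDT6 transcript has 432 bases. By count in shFGF9-D1, NUDT6 had 23 and FGF2 had 14, with overlapping intervals. By count the FGFR1 pair was the other way in shvoid and shFGF9-D1, with FGFR1 at 30 and 43 and AC087623.2 at 15 and 16.

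By the 2-fold rule, a gene with 10 counts or more in either library was taken as higher or lower if its ratio reached 2-fold and its 95% interval left out equal levels. Of the 4000 genes with enough counts, 4.7% were higher in shFGF9-D1 and 5.38% lower. Of the 4 genes here with enough counts, 1 was higher (FGF2) and 0 were lower, and since they were chosen with these values known nothing is read from that share. NUDT6 passed as lower when the libraries were scaled by DESeq2 size factors, and FGF2 did not pass with a 99% interval, a minimum of 20 counts or an assumed variation between cultures. By FPKM, with a difference of at least 1 on the log2(FPKM + 1) scale among genes of at least 1 FPKM, 23.2% of 14949 genes were higher and 28.2% lower. FGF2 was higher and NUDT6 lower by that rule, which has no allowance for counting error.

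**Figure D4:**
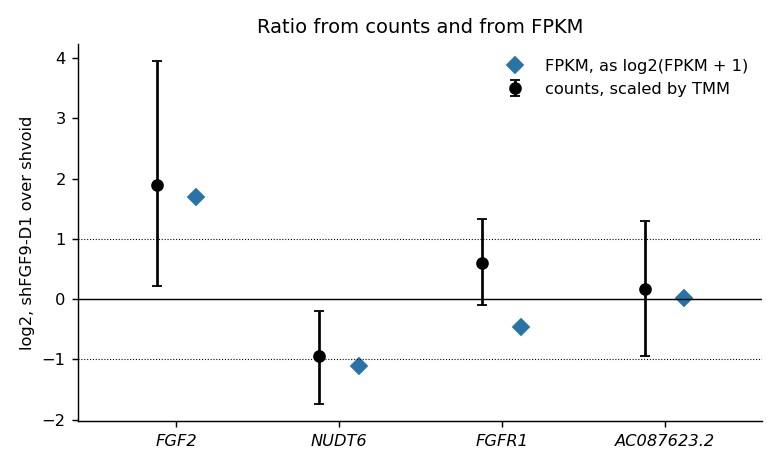
Ratio of shFGF9-D1 to shvoid on the log2 scale for the 4 genes with at least 10 counts, from TMM-scaled counts (black, exact 95% interval for counting error) and from log2(FPKM + 1) (blue, no interval). The measures lie close together for FGF2, NUDT6 and AC087623.2, and on opposite sides of 0 for FGFR1 (0.60 and -0.46). Dotted lines mark 2-fold.

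The other FGF family genes mostly had 0 counts in both libraries. The strand used in counting is not stated, so whether this means absent RNA was not tested. Of the 22 FGF genes, which include intracellular homologous factors that are not receptor ligands, 16 had 0 counts in both libraries, and FGF2 and FGF14 alone reached 10. Of all 58220 genes, 40798 had 0 counts in both libraries and 4000 reached 10. FGF14, an intracellular FGF homologous factor that binds sodium channels rather than FGF receptors, had 253 counts in shvoid and 290 in shFGF9-D1 (log2 ratio 0.28, interval 0.03 to 0.53). FGF14 shares 4354 exon bases with ITGBL1, an integrin-related matrix gene that had 1 count in each library. Whether the fragments counted for FGF14 came from its own strand was not tested. FGF22 had 8 and 4 counts. Among the other receptors and co-receptors, FGFR4 and FGFRL1 each had 0 counts in shvoid and 1 in shFGF9-D1. KLB (beta-Klotho, the co-receptor for FGF19 and FGF21) had 8 counts in shvoid and 1 in shFGF9-D1, below the minimum of 10.

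The FGF genes that reached 10 counts all had an opposite-strand neighbour. Of the 29 FGF genes, receptors and Klotho co-receptors, 3 of the 6 that share exon bases with an opposite-strand gene reached 10 counts (50%, exact interval 11.8% to 88.2%), namely FGF2, FGF14 and FGFR1. Of the 23 without such a neighbour, which include FGF9, FGFR2 and FGFR3, 0 reached 10 counts (up to 14.8%), and the highest was 8 counts. These intervals overlapped, and at least 1 count was present in 4 of the 6 and in 7 of the 23. Over all nuclear protein-coding genes, 29.5% of 6614 with a neighbour and 5.32% of 13164 without one reached 10 counts. At least 1 count was present in 5148 of the 6614 and in 6846 of the 13164. The difference in the FGF family was in the direction of that seen over all genes, and its part in the low counts of FGF9, FGFR2 and FGFR3 was not tested.

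Among the genes around and downstream of the receptors, few were counted often enough to compare, as over all genes, where 4000 of 58220 reached 10 counts. The pathway was described by 8 lists with 129 genes, written with earlier results of these data known, of which 17 reached 10 counts, 1 was higher (FGF2) and 0 were lower, beside 4.7% and 5.38% of all 4000 genes. A share of 1 in 17 is close to that background. Of these 17, 16 share exon bases with an opposite-strand gene, and in 12 of the 16 the neighbours together had more counts than the gene itself in shvoid (11 of 16 in shFGF9-D1). Of the 41 pathway genes with a neighbour, 39.0% reached 10 counts, as against 1.14% of the 88 without one (1 gene, MAFF). Over all nuclear protein-coding genes these shares were 29.5% of 6614 and 5.32% of 13164.

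In the RAS-MAPK cascade, 5 of 20 genes reached 10 counts and the median log2 ratio was 0.08, beside 0.04 over all 4000 genes. MAP2K1, which encodes the kinase MEK1, had 51 and 30 counts (log2 ratio -0.68, interval -1.39 to -0.01), short of 2-fold. SNAPC5, a subunit of the small nuclear RNA activating complex and 1 of its 2 opposite-strand neighbours, had 17 and 30 counts. That ratio pointed the other way, with equal levels just inside its interval (log2 ratio 0.90, interval -0.004 to 1.85). The 2 neighbours together had 31 and 53 counts. BRAF had 17 counts in each library.

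In the PI3K-AKT, phospholipase C gamma and STAT branches, 4 of 15 genes had enough counts and their median log2 ratio was 0.13. PIK3CA, the catalytic subunit of PI3K alpha, had 54 counts in shvoid and 38 in shFGF9-D1 (log2 ratio -0.43, interval -1.06 to 0.20). AKT1 had 19 and 22 counts, beside 794 and 878 for the opposite-strand AL583722.2. PLCG1, which encodes phospholipase C gamma 1, had 14 and 13 counts. The intervals of PIK3CA, AKT1 and PLCG1 included equal levels.

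Around the receptor, 1 of 23 heparan sulfate genes and 1 of 10 FGF-binding genes reached 10 counts. SULF2, a sulfatase that trims the heparan sulfate chains FGFs bind, had 63 counts in shvoid and 42 in shFGF9-D1 (log2 ratio -0.50, interval -1.10 to 0.08). Its 2 opposite-strand neighbours together had 96 and 72 counts, the same direction. FLRT1, a membrane protein that interacts with FGF receptors, had 14 and 20 counts (log2 ratio 0.60, interval -0.46 to 1.69).

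Among the genes that FGF signalling induces, 1 of 15 feedback inhibitors and 2 of 17 transcriptional targets had 10 counts or more, with 0 higher and 0 lower by the 2-fold rule. DUSP6, the phosphatase that switches off ERK, had 10 and 12 counts (log2 ratio 0.34, interval -0.99 to 1.71), beside 754 and 704 for AC024909.3 opposite. PHLDA1 had 17 counts in shvoid and 30 in shFGF9-D1 (log2 ratio 0.90, with equal levels just inside the interval). MAFF, a small MAF transcription factor with no opposite-strand neighbour, had 9 and 19 (log2 ratio 1.16, interval -0.05 to 2.49). SPRY2, SPRY4, ETV4 and ETV5, widely used readouts of FGF signalling, had between 0 and 2 counts in each library. They were picked from the lists after their values were seen. Whether their counts reflected little RNA or the strand that was counted was not tested.

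**Figure D5:**
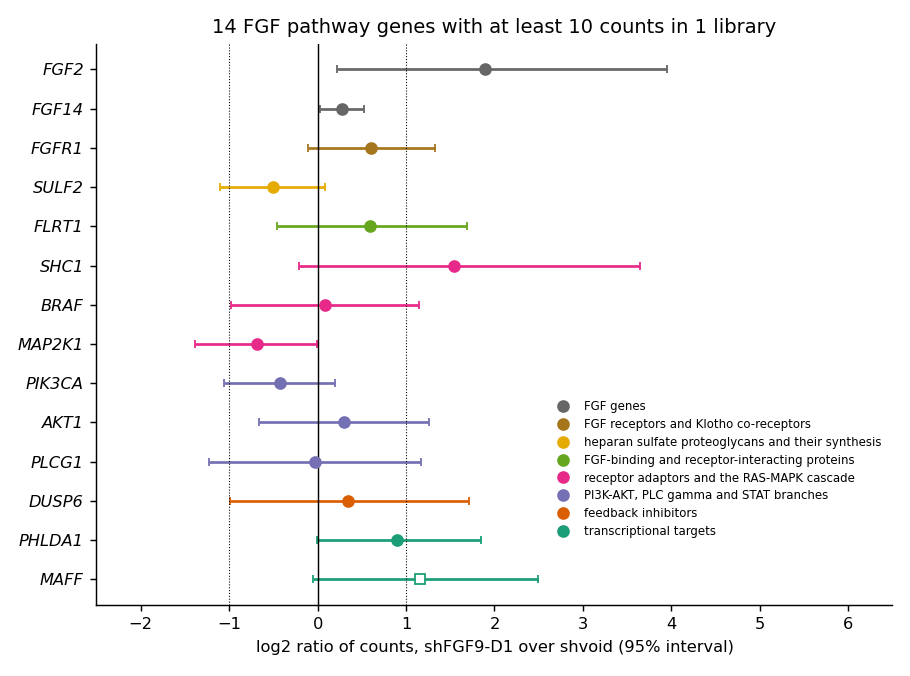
Log2 ratio of TMM-scaled counts, shFGF9-D1 over shvoid, for 14 of the 17 FGF pathway genes with at least 10 counts in 1 library, coloured by list. Bars are exact 95% intervals for counting error, the open square has no opposite-strand neighbour, and dotted lines mark 2-fold. FGF2 is the only plotted gene at least 2-fold apart whose interval excludes 0.

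NUDT6 was also set beside its own enzyme family, the Nudix hydrolases, which cleave nucleoside diphosphates linked to other groups. Of 21 Nudix genes, 9 reached 10 counts, and 1 was higher and 0 were lower, beside 4.7% and 5.38% of all 4000 genes. Their median log2 ratio was 0.13. The higher one was NUDT19, a peroxisomal coenzyme A hydrolase without an opposite-strand neighbour, with 3 counts in shvoid and 16 in shFGF9-D1 (log2 ratio 2.50, interval 0.69 to 4.92). NUDT4 had 104 and 147 counts (log2 ratio 0.58, interval 0.21 to 0.96) and NUDT22 had 52 and 34 (log2 ratio -0.53, interval -1.20 to 0.12). NUDT3 had 45 in each library, and NUDT17 had 58 and 60. NUDT6 had the lowest ratio of the 9.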

How the data were processed

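RNA-seq was available for 1 shvoid and 1 shFGF9-D1 library. The submitters' processing notes name GRCh38.p14 as the build and, as tools, HISAT2, Cuffdiff, Cufflinks 2.2.1 and bcl2fastq 2.1.7. The authors deposited estimated counts per gene, not scaled between libraries, which were rounded to whole numbers here, and deposited FPKM per gene. For the strand used in counting, the setting was not given in the sources used here. Members were matched by identifier, since GENCODE 29 gives the name AC087623.2 to another gene, and 57882 of 58220 identifiers matched that release, used for coordinates and exon overlap.

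The members, lists and rules were chosen with earlier results of these data known. Counts were scaled by TMM (edgeR 4.0.16, R 4.3.3), with factors of 1.01 and 0.988. Ratios have exact Clopper-Pearson 95% intervals (scipy 1.17.1). Genes with 3 counts or fewer in both libraries have no ratio. The rule for 2-fold differences was also tried on simulated counts with counting error alone, so that trial says nothing about variation between cultures. Implied length is the count divided by FPKM and by the library total, on the scale on which FPKM is defined, in bases. Named genes are the members with their exon-overlapping opposite-strand genes and, in each list, those that passed the rule and up to 4 others with the highest summed count among those with at least 10. Single results of some of these genes are not reported here. Genes with fewer counts, other than the members, were named after their values were seen. The alternatives tried were DESeq2 1.42.0 size factors, total counts, TMM over nuclear genes, other minimums, FPKM, a 99% interval and, with variation assumed, the exact test of edgeR.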

Additional observations from a re-analysis of the deposited data

How the results depend on the processing

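The ratios of FGF2, NUDT6 and AC087623.2 kept their direction under every other scaling and with FPKM, from 1.70 to 2.16 for FGF2 on the log2 scale. FGFR1 reversed with FPKM, to -0.46 with a pseudocount of 1, with or without a minimum of 1 FPKM, and to -0.48 with a pseudocount of 0.1. Of the 7 genes, 0 were higher with a minimum of 20 counts, a 99% interval or an assumed biological coefficient of variation of 0.1 or 0.4, and 2 (FGF2 and FGFR3) with FPKM and a pseudocount of 0.1. NUDT6 was the 1 lower gene with DESeq2 size factors (log2 ratio -1.03) and in all FPKM settings. With the assumed variation of 0.1, the edgeR exact test gave Benjamini-Hochberg adjusted p of 0.262 for FGF2, 0.232 for NUDT6 and 0.496 for FGFR1, and 1 for each with 0.4.

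Over the 4000 genes, the 188 higher and 215 lower became 119 and 130 with a minimum of 20 counts, 102 and 117 with a 99% interval, 39 and 46 with the assumed variation of 0.1, and 0 and 0 with 0.4, where the edgeR exact test gave 30 genes an unadjusted p under 0.05. FPKM gave 3472 and 4215 with a pseudocount of 1, with or without the minimum of 1 FPKM, and 4717 and 5703 with 0.1. Of the 129 pathway genes, 0 were higher with a minimum of 20 counts, a 99% interval or either assumed variation, 1 (KLB) was lower without a minimum, and FPKM gave 16 higher and 17 lower with a pseudocount of 1, with or without its minimum, and 29 and 28 with 0.1. The causes were not tested. No paired analysis was possible because there was 1 library per condition, and for the same reason no library could be left out. The minimum of 10 counts was a chosen rule, and below it intervals were wide.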
